A study of Mus musculus with 24 samples.

Results

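Sterol efflux genes and target genes of the liver X receptors (LXRs) were described across 3 diets and 2 feeding times in mouse liver. The set names Abcg5, Abcg8, Abca1, Abcg1, Lpcat3, Scarb1 and Soat2, and a member was measured where a probe set of the array carried its symbol and no other. By that rule 6 of the 7 genes were measured, each by 1 probe set, out of 22180 genes measured in this way, and Soat2 was not analysed here because no probe set carried its symbol in the annotation used. The rule used the genes' names, and the set was drawn up with earlier results of these data known.

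Livers came from male C57BL/6J mice fed a control diet or a high-fat diet (HFD) for 12 or 8 weeks. HFD-EPA/DHA had added n-3 fatty acids (EPA, eicosapentaenoic acid, and DHA, docosahexaenoic acid), and HFD-corn oil had more corn oil in their place. Coconut oil was the main fat of both HFDs, and both held corn oil. The mice of the 12-week study started at 10 weeks of age and those of the separate 8-week study at 9 weeks, so time and study cannot be told apart. Both HFDs held added cholesterol and more sucrose than the control diet, so a comparison with control is a comparison of whole diets. RNA of 1 liver was hybridised to each of 24 Mouse Gene 2.0 ST arrays, 4 per diet and time, from mice that the study picked for their weight and for cholesterol and triglycerides in plasma.

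LXRs are nuclear receptors that bind oxysterols, the oxidised forms of cholesterol. They pair with retinoid X receptors on DNA and raise the transcription of genes that move sterols out of cells. In hepatocytes ABCG5 and ABCG8 form a heterodimer in the canalicular membrane that passes cholesterol and plant sterols into bile. ABCA1 hands cholesterol and phospholipid to lipid-poor apolipoprotein A-I, and ABCG1 passes cholesterol to formed high-density lipoprotein (HDL) particles. SR-BI, the product of Scarb1, takes up cholesteryl esters from HDL, and LPCAT3 places polyunsaturated chains into membrane phospholipids.

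The promoters of the genes that are described most fully are shown first, because Abcg5 and Abcg8 are read from a shared stretch of DNA. The windows are from RefSeq on GRCm38.p6 and run from 250 bases before to 50 bases after a transcription start. Abcg8 (chr17:84682871-84683170, plus strand) and Abcg5 (chr17:84682962-84683261, minus strand) face away from each other with starts 110 bases apart, and 209 of the 300 bases of each window are common to both. Capitals mark the letters AGATAA, a motif of GATA factors, on either strand, and the same 3 matches appear in both windows. In Abca1 (chr4:53159846-53160145, minus strand) the capitals mark CACGTG, an E-box, and a stretch that resembles DR4, the direct repeat of AGGTCA with a spacer that LXRs bind.
Abcg5: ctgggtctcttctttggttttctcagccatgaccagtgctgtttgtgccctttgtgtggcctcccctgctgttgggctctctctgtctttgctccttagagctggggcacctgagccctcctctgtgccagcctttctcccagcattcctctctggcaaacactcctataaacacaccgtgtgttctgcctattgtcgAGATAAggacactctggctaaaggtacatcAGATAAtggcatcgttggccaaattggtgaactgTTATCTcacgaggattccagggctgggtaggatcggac
Abcg8: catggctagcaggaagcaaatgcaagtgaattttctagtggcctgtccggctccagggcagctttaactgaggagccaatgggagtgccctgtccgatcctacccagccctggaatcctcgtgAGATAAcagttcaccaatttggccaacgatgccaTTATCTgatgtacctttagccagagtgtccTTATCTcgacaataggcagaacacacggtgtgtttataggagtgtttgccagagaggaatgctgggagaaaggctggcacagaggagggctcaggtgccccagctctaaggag
Abca1: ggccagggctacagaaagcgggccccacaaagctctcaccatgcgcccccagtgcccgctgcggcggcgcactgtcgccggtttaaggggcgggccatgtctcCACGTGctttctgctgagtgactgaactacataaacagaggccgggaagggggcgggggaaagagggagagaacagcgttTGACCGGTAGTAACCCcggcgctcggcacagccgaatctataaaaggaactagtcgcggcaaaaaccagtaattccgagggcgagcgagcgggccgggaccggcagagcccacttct

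Counted from the start of Abcg8, the GATA motifs lay at −127 to −122, −93 to −88 and −63 to −58. Of all 32851 windows in the promoter table, searched on both strands, 11.2% held this motif at least once and 0.107% held it 3 times or more. In Abca1 the E-box lay at −147 to −142, and 7.15% of all windows held one. The DR4-like stretch of Abca1 lay on the reverse strand at −67 to −52 with 3 mismatches, as in 21.9% of all windows. An LXR element of this type is known from the human ABCA1 promoter. None of the windows held AGGTCA itself, which 16.3% of all windows did, and the window of Lpcat3 (chr6:124662854-124663153, plus strand) held none of these motifs. A second, upstream window of Abcg8 (chr17:84676052-84676351) held none either. The motifs were chosen after the sequences had been seen, and a match is a description of letters, not of a site in use.

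The deposited table gave 1 value per probe set and array on a log2 scale, with values between 4.39 and 13.93 and array medians between 7.14 and 7.21. The study left out 1 HFD-corn oil array at 8 weeks, whose mean correlation with its own group was 0.941, against 0.973 to 0.989 for the other arrays, and it was left out of the tests here too. The 23 remaining arrays were fitted together in limma with 1 mean per diet and time, and p-values were adjusted over the 41345 probe sets (threshold 0.05). All 7 hepatocyte markers checked were above the median of all probe sets. The whole of a liver was measured, so fewer cells of a type and less RNA per cell cannot be told apart.

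**Figure D1:**
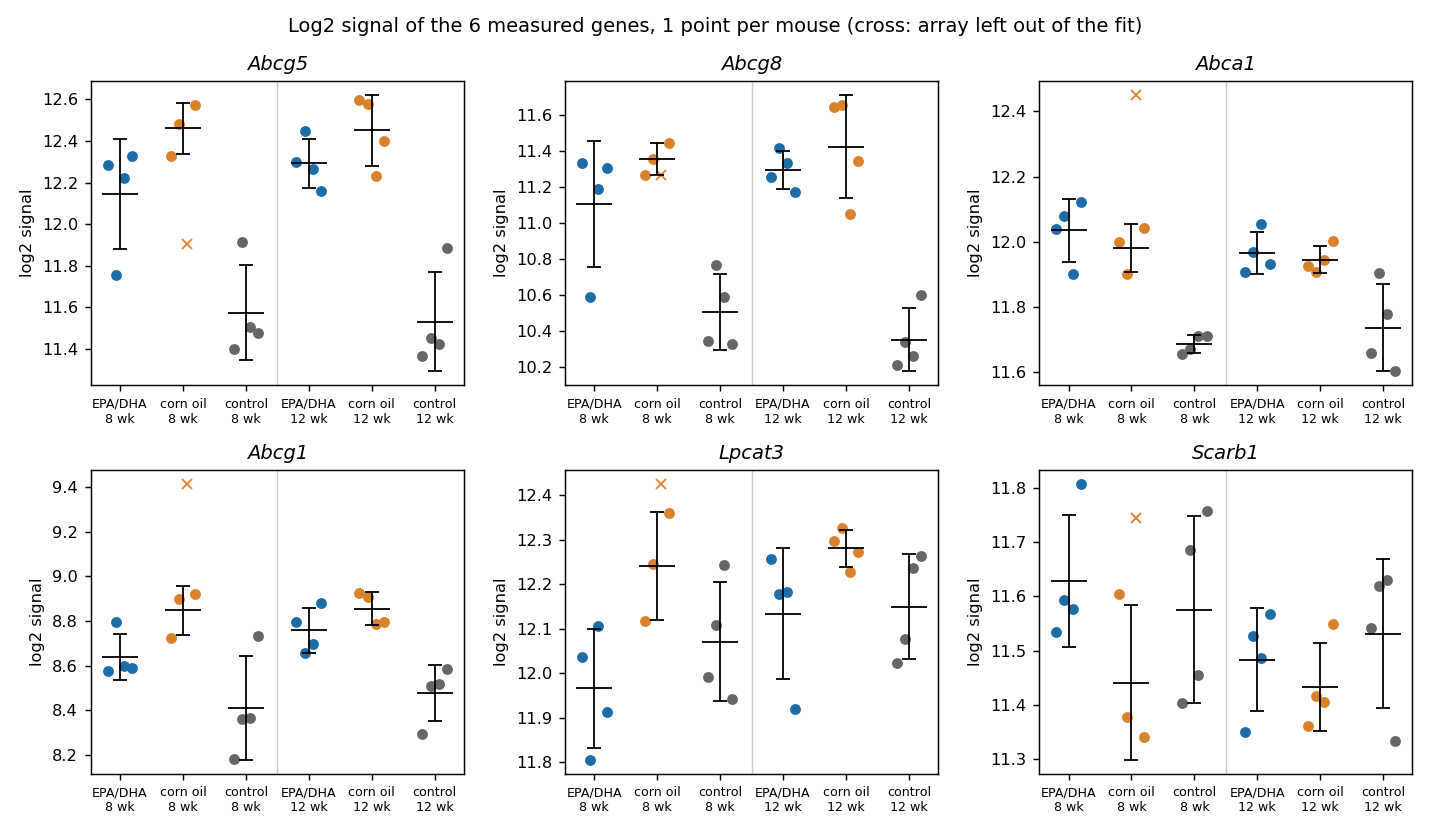
Log2 signal of the 6 measured genes in each of the 23 livers, with 1 point per mouse, a bar at the mean of each diet and time with its SD, and a cross for the array left out of the tests. For Abcg5 and Abcg8, 14 of the 15 HFD livers lay above the highest of the 8 control livers, whereas the HFD and control livers of Scarb1 lay in a common range.

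Abcg5 and Abcg8, the partners of the biliary sterol exporter, had the largest fold values among the members and were higher under both HFDs. At 12 weeks the Abcg5 log2 signal was 12.30, 12.45, 12.26 and 12.16 in HFD-EPA/DHA livers, 12.60, 12.58, 12.23 and 12.40 in HFD-corn oil livers, and 11.36, 11.45, 11.42 and 11.89 in control livers. Abcg8 had 11.25, 11.42, 11.33 and 11.17 in HFD-EPA/DHA livers, 11.64, 11.66, 11.05 and 11.34 in HFD-corn oil livers, and 10.21, 10.34, 10.26 and 10.60 in control livers. Every HFD liver at 12 weeks lay above every control liver for both genes, and control replicate 4 was the highest of the controls. The share of all probe sets separated in this way at 12 weeks was not counted. In limma, HFD-EPA/DHA vs. control at 12 weeks gave 1.70-fold higher Abcg5 (log2 difference 0.76 ± 0.13 SE, n = 4 vs. 4, adjusted p = 0.00381) and 1.92-fold higher Abcg8 (0.94 ± 0.15, adjusted p = 0.00123). HFD-corn oil vs. control at 12 weeks gave 1.89-fold higher Abcg5 (0.92 ± 0.13, n = 4 vs. 4, adjusted p = 0.00218) and 2.10-fold higher Abcg8 (1.07 ± 0.15, adjusted p = 0.00138). These were the 2 of 6 members called in each comparison, against 0.3% of all probe sets called higher for HFD-EPA/DHA and 0.106% for HFD-corn oil. Both comparisons used the same 4 control livers. Abcg5 and Abcg8 remained called in both when any 1 of the 23 arrays was left out.

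At 8 weeks the Abcg5 log2 signal was 12.28, 11.76, 12.22 and 12.33 in HFD-EPA/DHA livers, 12.33, 12.48 and 12.57 in HFD-corn oil livers, and 11.40, 11.91, 11.51 and 11.48 in control livers. Abcg8 had 11.33, 10.59, 11.19 and 11.30 in HFD-EPA/DHA livers, 11.27, 11.36 and 11.44 in HFD-corn oil livers, and 10.34, 10.77, 10.59 and 10.32 in control livers. The HFD-corn oil livers lay above all control livers for both genes, and 3 of the 4 HFD-EPA/DHA livers did. For all probe sets the like shares at 8 weeks were not counted. The exception was replicate 2 of HFD-EPA/DHA, which lay within the range of the control livers for both genes. HFD-corn oil vs. control gave 1.85-fold higher Abcg5 (log2 difference 0.89 ± 0.14, n = 3 vs. 4, adjusted p = 0.00532) and 1.80-fold higher Abcg8 (0.85 ± 0.16, adjusted p = 0.0160), the 2 of 6 members called, beside 0.177% of all probe sets called higher. In HFD-EPA/DHA livers the log2 differences from control were 0.57 ± 0.13 for Abcg5 (n = 4 vs. 4, adjusted p = 0.0581) and 0.60 ± 0.15 for Abcg8 (adjusted p = 0.0743), which did not pass the threshold.

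The call on Abcg8 in HFD-corn oil livers at 8 weeks did not hold without any 1 of the 3 HFD-corn oil livers (adjusted p = 0.0655 to 0.0722) or without control replicate 4 (adjusted p = 0.0876). With replicate 2 of HFD-EPA/DHA left out, the difference from control passed for Abcg5 (0.70, adjusted p = 0.0127) and for Abcg8 (0.77, adjusted p = 0.00702).

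Over both times, both HFDs vs. control gave 1.72-fold higher Abcg5 (log2 difference 0.78 ± 0.08, n = 15 vs. 8, adjusted p = 2.79e-06) and 1.82-fold higher Abcg8 (0.87 ± 0.09, adjusted p = 2.85e-06). Of the 6 members 4 were called higher in this comparison, beside 1.08% of all probe sets. For Abcg5 14 of 15 HFD livers lay above the highest control liver at 11.91, and for Abcg8 14 of 15 lay above the highest control liver at 10.77. No overlap at all between 15 HFD and 8 control livers was seen for 0.104% of all probe sets and for 0 of the 6 members. The like share for HFD and control livers of a single time, or for HFD-EPA/DHA against HFD-corn oil livers, was not counted.

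The order of the group means of Abcg5 was HFD-corn oil at 8 weeks (12.46 ± 0.12 SD, n = 3), HFD-corn oil at 12 weeks (12.45 ± 0.17, n = 4), HFD-EPA/DHA at 12 weeks (12.29 ± 0.12, n = 4) and HFD-EPA/DHA at 8 weeks (12.15 ± 0.26, n = 4), followed by control at 8 weeks (11.58 ± 0.23, n = 4) and control at 12 weeks (11.53 ± 0.24, n = 4). Only the step between HFD-EPA/DHA at 8 weeks and control at 8 weeks was larger than the SDs of both neighbours. Abcg8 had the same division, with 11.10 ± 0.35 in HFD-EPA/DHA livers at 8 weeks as the lowest HFD mean and 10.50 ± 0.21 in control livers at 8 weeks as the highest control mean (SD, n = 4 each). Neighbouring HFD means of Abcg8 differed by less than the larger SD.

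The 2 genes followed each other from mouse to mouse as well. Over the 23 livers the log2 signals of Abcg5 and Abcg8 had a Pearson r of 0.982 and a Spearman rho of 0.973, and after the mean of each diet and time was removed the r was 0.926. The livers share array normalization and diet groups, and the correlation is given as a description. Among 13155 genes above the median signal, Abcg8 was the most alike to Abcg5 and Abcg5 the most alike to Abcg8. The next most alike to Abcg5 were Hsd17b10 (r = 0.910), a mitochondrial dehydrogenase, and Hibadh (0.904), an enzyme of valine breakdown. For Abcg8 they were Hibadh (0.909) and Chpt1 (0.897), a choline phosphotransferase that makes phosphatidylcholine.

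**Figure D2:**
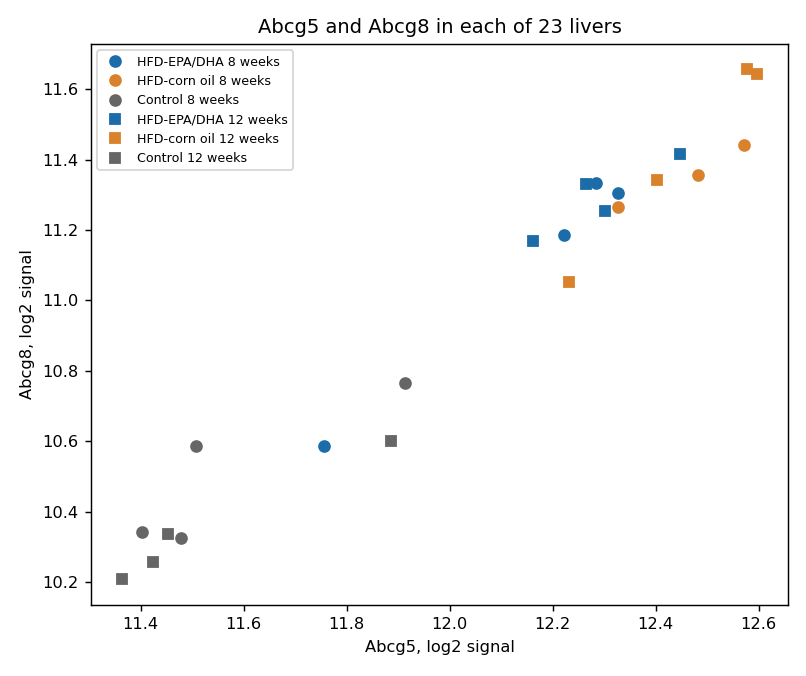
Log2 signal of Abcg8 against that of Abcg5 in each of the 23 livers, coloured by diet and shaped by time. HFD-EPA/DHA replicate 2 at 8 weeks (11.76 and 10.59) sits among the control livers in both genes, and the other HFD livers lie above them.

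Abca1, the transporter that loads apolipoprotein A-I, was also higher in HFD livers over both times. At 12 weeks its log2 signal was 11.91, 11.97, 12.06 and 11.93 in HFD-EPA/DHA livers, 11.93, 11.91, 11.95 and 12.00 in HFD-corn oil livers, and 11.66, 11.90, 11.78 and 11.60 in control livers. At 8 weeks it was 12.04, 12.08, 11.90 and 12.12 in HFD-EPA/DHA livers, 12.00, 11.90 and 12.04 in HFD-corn oil livers, and 11.66, 11.67, 11.71 and 11.71 in control livers. All HFD livers lay above the control livers of their own time, and the lowest HFD livers at 12 weeks lay just above control replicate 2. How many of all probe sets were separated in this way within a single time was not counted. HFD-EPA/DHA vs. control at 8 weeks gave 1.27-fold higher Abca1 (log2 difference 0.35 ± 0.07, n = 4 vs. 4, adjusted p = 0.0310), the 1 of 6 members called there beside 0.14% of all probe sets called higher. The differences from control in HFD-corn oil livers at 8 weeks (0.29 ± 0.08, adjusted p = 0.107), and at 12 weeks in HFD-EPA/DHA livers (0.23 ± 0.07, adjusted p = 0.241) and HFD-corn oil livers (0.21 ± 0.07, adjusted p = 0.391), did not pass.

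Over both times, both HFDs vs. control gave 1.21-fold higher Abca1 (0.27 ± 0.05, n = 15 vs. 8, adjusted p = 0.000914), and 13 of 15 HFD livers lay above the highest control liver. The call at 8 weeks did not hold without HFD-EPA/DHA replicate 1, 2 or 4 or control replicate 2, 3 or 4 of that time (adjusted p = 0.0812 to 0.114). The call over both times held without any 1 of the 23 arrays (adjusted p up to 0.00424). Among the group means, the only step larger than the SDs of both neighbours lay between HFD-corn oil at 12 weeks (11.95 ± 0.04) and control at 12 weeks (11.74 ± 0.13; SD, n = 4 each).

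Abcg1, the exporter to HDL, was called higher in HFD livers over both times, and was not called in any comparison with control at 1 time. At 12 weeks its log2 signal was 8.80, 8.66, 8.70 and 8.88 in HFD-EPA/DHA livers, 8.93, 8.91, 8.79 and 8.80 in HFD-corn oil livers, and 8.29, 8.51, 8.52 and 8.58 in control livers. At 8 weeks it was 8.58, 8.79, 8.60 and 8.59 in HFD-EPA/DHA livers, 8.72, 8.90 and 8.92 in HFD-corn oil livers, and 8.18, 8.36, 8.37 and 8.74 in control livers. No HFD liver overlapped with the control livers at 12 weeks, and at 8 weeks control replicate 4 reached into the HFD range. Such a lack of overlap within a single time was not counted over all probe sets. HFD-EPA/DHA replicate 2 was the highest of its group at 8 weeks. None of the 4 comparisons of a diet with control at 1 time passed for Abcg1, with adjusted p of 0.523 for HFD-EPA/DHA (0.23 ± 0.10) and 0.0558 for HFD-corn oil (0.44 ± 0.11) at 8 weeks, and of 0.321 (0.28 ± 0.10) and 0.161 (0.38 ± 0.10) for the same diets at 12 weeks. All 4 had an unadjusted p under 0.05 in limma. Over both times, both HFDs vs. control gave 1.26-fold higher Abcg1 (0.33 ± 0.06, n = 15 vs. 8, adjusted p = 0.00196), with 9 of 15 HFD livers above the highest control liver.

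Kupffer cells and other macrophages also express Abca1 and Abcg1, and their markers were read beside these genes. All 10 macrophage markers were measured and 9 were above the median of all probe sets, with Marco below it. Their summed signal at 12 weeks was 6623 to 8005 in HFD-EPA/DHA livers, 6752 to 7767 in HFD-corn oil livers and 7450.3 to 9636 in control livers. At 8 weeks it was 6783 to 9879 in HFD-EPA/DHA livers, 7525 to 8674 in HFD-corn oil livers and 5644 to 9507 in control livers. At 12 weeks all 10 markers had a lower mean under each HFD than in control, and 0 of 10 passed. The median log2 difference was −0.31 for HFD-EPA/DHA and −0.27 for HFD-corn oil. In limma 5 and 4 had an unadjusted p under 0.05, beside 8.44% and 8.53% of all probe sets, and Marco had the smallest. At 8 weeks 8 of the 10 had a higher mean under HFD-EPA/DHA than in control (median 0.06) and 6 of the 10 under HFD-corn oil (median 0.10), and again 0 passed, with 0 unadjusted p under 0.05. Summed hepatocyte markers at 12 weeks were 58885 to 61184 in HFD-EPA/DHA livers, 59185 to 61979.7 in HFD-corn oil livers and 62279 to 63921 in control livers, with no marker passing. At 8 weeks they were 58579.8 to 63230.4 in HFD-EPA/DHA livers, 57850.3 to 61395 in HFD-corn oil livers and 60992 to 63398 in control livers. The smallest p of these markers within a time was that of Ttr, transthyretin, in HFD-EPA/DHA vs. control at 12 weeks (−0.16, adjusted p = 0.496 in limma). The part of either shift in the levels of the members was not tested.

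Lpcat3, the phospholipid remodelling enzyme, and Scarb1, the HDL receptor, were not called in any comparison with control. At 12 weeks the Lpcat3 log2 signal was 12.26, 12.18, 12.18 and 11.92 in HFD-EPA/DHA livers, 12.30, 12.33, 12.23 and 12.27 in HFD-corn oil livers, and 12.02, 12.08, 12.24 and 12.26 in control livers. At 8 weeks it was 12.04, 11.80, 12.11 and 11.91 in HFD-EPA/DHA livers, 12.12, 12.24 and 12.36 in HFD-corn oil livers, and 11.99, 12.11, 12.24 and 11.94 in control livers. Each HFD overlapped with control at both times. Both HFDs vs. control over both times gave a log2 difference of 0.05 ± 0.06 for Lpcat3 (n = 15 vs. 8, 95% interval −0.07 to 0.16, adjusted p = 0.852).

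For Scarb1 the log2 signal at 12 weeks was 11.35, 11.53, 11.49 and 11.57 in HFD-EPA/DHA livers, 11.36, 11.42, 11.40 and 11.55 in HFD-corn oil livers, and 11.54, 11.62, 11.63 and 11.33 in control livers. At 8 weeks it was 11.53, 11.59, 11.58 and 11.81 in HFD-EPA/DHA livers, 11.60, 11.38 and 11.34 in HFD-corn oil livers, and 11.40, 11.69, 11.46 and 11.76 in control livers. The diets overlapped at both times, and 1 of 15 HFD livers lay above the highest control liver. Both HFDs vs. control gave −0.06 ± 0.06 for Scarb1 (n = 15 vs. 8, 95% interval −0.18 to 0.07, adjusted p = 0.805), so a change of the size seen for Abcg5 or Abcg8 lay outside the intervals of both Scarb1 and Lpcat3. Of the group means of these 2 genes, no neighbours in the order differed by more than the larger SD.

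**Figure D3:**
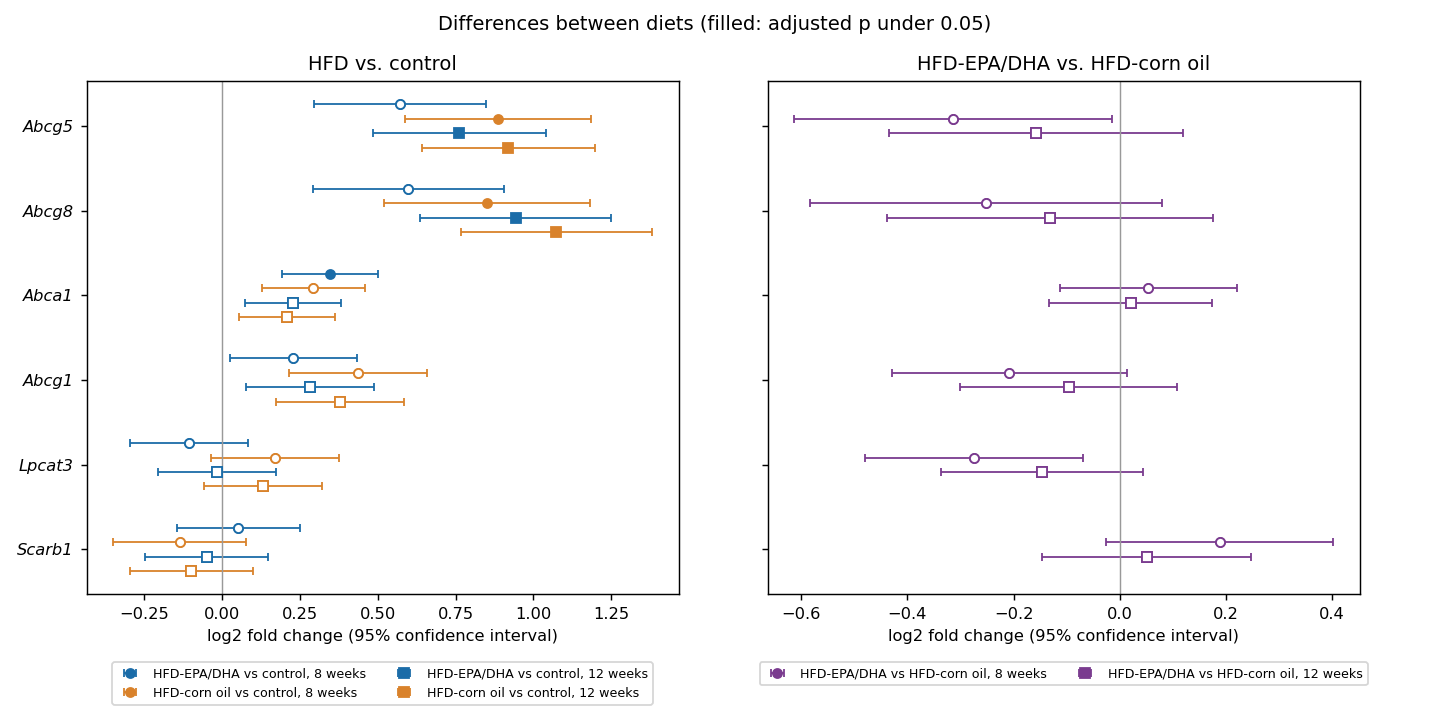
Log2 difference between diets with its 95% interval for each gene, time and comparison, with each HFD against control on the left and HFD-EPA/DHA against HFD-corn oil on the right. Filled points passed an adjusted p of 0.05, among them every Abcg5 and Abcg8 point at 12 weeks on the left and no point on the right.

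HFD-EPA/DHA vs. HFD-corn oil addressed fat quality at a like fat content, and in limma 0 of 6 members passed at 8 weeks, at 12 weeks or over both times. Of all probe sets 0.0266%, 0.00967% and 0.0653% were called in these 3 comparisons. An unadjusted p under 0.05 was found for 2 members at 8 weeks, for 0 at 12 weeks and for 3 over both times. Of all probe sets 6.92%, 4.63% and 7.21% had one in the same comparisons. The largest difference over both times was that of Abcg5, at −0.24 ± 0.10 (n = 8 vs. 7, 95% interval −0.44 to −0.03, adjusted p = 0.628). Lpcat3 had the smallest p, with −0.21 ± 0.07 (95% interval −0.35 to −0.07, adjusted p = 0.469). At 8 weeks all 4 HFD-EPA/DHA livers had less Lpcat3 signal than the 3 HFD-corn oil livers, and the difference did not pass (−0.28 ± 0.10, adjusted p = 0.687). The gap was narrow, with the highest HFD-EPA/DHA liver at 12.11 and the lowest HFD-corn oil liver at 12.12. How many of all probe sets had such a gap was not counted. At 12 weeks the 2 groups overlapped (−0.15 ± 0.09, adjusted p = 1.00).

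Abcg8 differed by −0.19 ± 0.11 over both times (95% interval −0.42 to 0.03), Abcg1 by −0.15 ± 0.07 (−0.30 to −0.0014), Abca1 by 0.04 ± 0.05 (−0.08 to 0.15) and Scarb1 by 0.12 ± 0.07 (−0.03 to 0.26). A lower Abcg5 or Abcg8 level under HFD-EPA/DHA by up to about 0.4 on the log2 scale was therefore within the intervals.

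The change of each diet comparison between the 12- and 8-week studies was tested as an interaction. In limma 0 of 6 members and 0% of all probe sets passed in each of the 3 changes, the smallest adjusted p among members was 0.983, and no member had an unadjusted p under 0.05. HFD-EPA/DHA vs. control was larger at 12 than at 8 weeks by 0.34 for Abcg8, the largest change among the members, and this difference did not pass. Within HFD-EPA/DHA, HFD-corn oil and control livers, 12 vs. 8 weeks gave log2 differences of −0.15 to 0.19, −0.04 to 0.07 and −0.15 to 0.08 over the 6 members. None passed, and none had an unadjusted p under 0.05. Of all probe sets 0%, 0% and 0.00967% were called in these comparisons within a diet.

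The other members resembled each other less than Abcg5 and Abcg8 did. Over the 23 livers r was 0.663 between Abca1 and Abcg5, 0.740 between Abcg1 and Abcg5 and 0.610 between Abca1 and Abcg1. After the mean of each diet and time was removed these became −0.26, 0.01 and 0.05. Other pairs had a positive r within groups. It was 0.58 for Abcg5 and Lpcat3 (0.44 over all livers) and 0.61 for Abcg8 and Lpcat3 (0.42). For Abca1 and Scarb1 it was 0.49 (0.10 over all livers). Lpcat3 and Scarb1 ran against each other, with r of −0.66 over all livers and −0.50 within groups. The gene most alike to Abca1 was Thoc5 (r = 0.919), a subunit of the THO complex of mRNA export, followed by Acox2 (0.890), a peroxisomal oxidase of bile acid intermediates. For Abcg1 it was Rfk (0.812), riboflavin kinase, followed by Lgals3 (0.802) and Anxa2 (0.796). Within groups the r with Abcg1 was 0.62 for Rfk, 0.81 for Lgals3 and 0.41 for Anxa2. The gene most alike to Lpcat3 was Pcbd1 (0.858), a pterin dehydratase and HNF1 cofactor, and for Scarb1 it was Smurf2 (0.761), a ubiquitin ligase.

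Other known LXR targets did not follow the efflux genes as a group. Of 18 listed genes 15 were measured, and over both times both HFDs vs. control gave 2 higher and 3 lower, beside 1.08% of all probe sets called higher and 1.66% called lower. The median log2 difference was 0.02 against −0.01 for all probe sets. Pltp, which encodes the phospholipid transfer protein of plasma, fell to 9.76 ± 0.16 in HFD-EPA/DHA livers and 10.13 ± 0.55 in HFD-corn oil livers at 8 weeks, against 11.12 ± 0.30 in control livers (SD, n = 4, 3 and 4). Its log2 difference from control was −1.36 ± 0.21 for HFD-EPA/DHA (adjusted p = 0.00144) and −0.99 ± 0.23 for HFD-corn oil (adjusted p = 0.0415) at 8 weeks, and −0.72 ± 0.21 (adjusted p = 0.162) and −0.70 ± 0.21 (adjusted p = 0.261) at 12 weeks. The rest are named after their values were seen. Srebf1, the lipogenic transcription factor gene (0.64 ± 0.14, adjusted p = 0.0102), and Lpl, lipoprotein lipase (0.62 ± 0.12, adjusted p = 0.00204), were higher over both times. Fasn, fatty acid synthase (−0.67 ± 0.18, adjusted p = 0.0380), and Acaca, acetyl-CoA carboxylase (−0.40 ± 0.11, adjusted p = 0.0412), were lower. HFD-EPA/DHA vs. HFD-corn oil over both times had 0 of 15 called, 1 difference above 0 and a median of −0.20. In limma 5 of the 15 had an unadjusted p under 0.05 there, beside 7.21% of all probe sets.

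**Figure D4:**
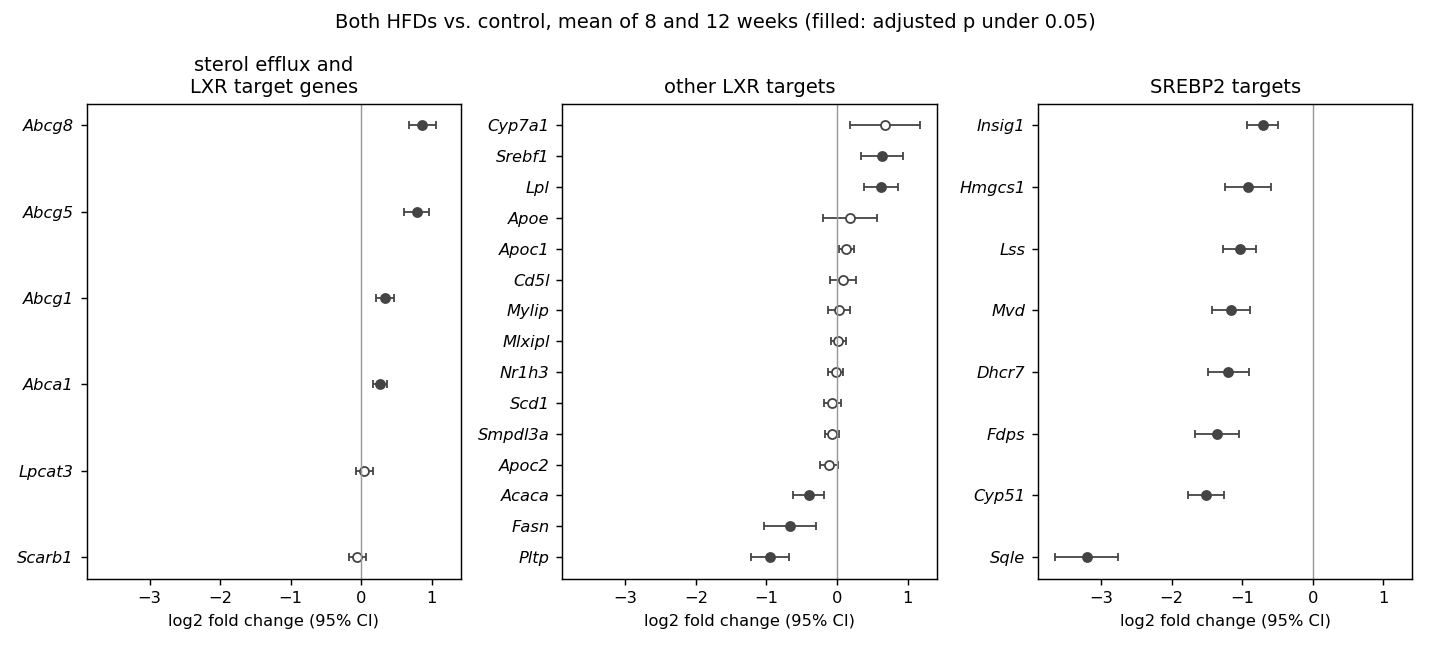
Log2 difference of both HFDs vs. control over both times, with its 95% interval, for the 6 sterol efflux and LXR target genes, 15 other LXR targets and 8 targets of SREBP2. Filled points passed an adjusted p of 0.05. Of the members 4 lie above 0 and pass, the other LXR targets spread to both sides, and all 8 SREBP2 targets lie below 0.

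The genes that sense and supply the LXR signal were measured alongside. Of 9 listed receptors and cofactors 6 were measured, 0 passed in limma in any comparison of diets, and over both times the differences of both HFDs vs. control were −0.04 to 0.21 with 0 unadjusted p under 0.05, and 0 to 2 in each of the other comparisons of diets. Of the LXR genes, Nr1h3 was among the 6 (−0.02 ± 0.05 for both HFDs vs. control over both times, adjusted p = 0.942) and Nr1h2 was not. The smallest p of the 6 within a time was that of Nrip1, a corepressor of nuclear receptors, in HFD-corn oil vs. control at 12 weeks (−0.34 ± 0.12, adjusted p = 0.408). Among 7 enzymes that form or remove oxysterols, HFD-EPA/DHA vs. control at 12 weeks had 1 higher and 1 lower, beside 0.3% and 0.317% of all probe sets. The lower was Cyp39a1, an oxysterol hydroxylase (−1.41 ± 0.29, adjusted p = 0.0185), whose difference over both HFDs and both times was −1.15 ± 0.18 (adjusted p = 0.000457). The higher was Cyp3a11, a cytochrome P450 that hydroxylates many drugs and sterols (0.89 ± 0.14, adjusted p = 0.00118). Its difference over both HFDs and both times was 0.64 ± 0.09 (adjusted p = 6.17e-05). In the other comparisons with control within a time 0 of the 7 enzymes were called. SREBP2 is the transcription factor of cholesterol synthesis that is held back when membranes are rich in cholesterol. Of 12 listed SREBP2 targets 8 were measured, and all 8 were lower in both HFDs vs. control over both times, with a median of −1.18, beside 1.66% of all probe sets called lower. They included Sqle, squalene epoxidase (−3.21 ± 0.22, adjusted p = 1.84e-09), Cyp51, lanosterol demethylase (−1.52 ± 0.13, adjusted p = 7.08e-08), Mvd, mevalonate diphosphate decarboxylase (−1.16 ± 0.13, adjusted p = 6.04e-06), and Fdps, farnesyl diphosphate synthase (−1.36 ± 0.15, adjusted p = 4.35e-06).

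The genes next to the members in the path of cholesterol included a list for HDL formation and uptake. Of its 9 genes 7 were measured. Both HFDs vs. control over both times gave 1 higher and 2 lower, beside the same 1.08% and 1.66% of all probe sets. The 1 higher gene was Cd36, whose ligands are not only those of HDL. Of the 7 differences 2 lay above 0, and the median was −0.22 against −0.01 for all probe sets. Cd36, a scavenger receptor for fatty acids and lipoproteins, had log2 means of 11.34 ± 0.71 in HFD-EPA/DHA livers, 11.39 ± 0.17 in HFD-corn oil livers and 10.21 ± 0.34 in control livers at 12 weeks (SD, n = 4 each), and differed from control by 1.12 ± 0.24 (adjusted p = 0.0260) and 1.18 ± 0.24 (adjusted p = 0.0424). Apom, an apolipoprotein of HDL that carries sphingosine 1-phosphate, differed from control at 12 weeks by −0.48 ± 0.09 under HFD-EPA/DHA (adjusted p = 0.00465) and −0.56 ± 0.09 under HFD-corn oil (adjusted p = 0.00418). The second lower gene over both times was Pltp. At 8 weeks the Cd36 means were 10.75 ± 0.21 in HFD-EPA/DHA livers, 11.69 ± 0.14 in HFD-corn oil livers and 10.09 ± 0.42 in control livers (SD, n = 4, 3 and 4). Cd36 was called higher there under HFD-corn oil (1.59) and not under HFD-EPA/DHA (0.66). The Apom means in the same order at 8 weeks were 11.67 ± 0.16, 11.33 ± 0.05 and 11.86 ± 0.11. Apom was called lower there under HFD-corn oil and not under HFD-EPA/DHA.

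In both HFDs vs. control over both times, 1.08% of all probe sets were called higher, 1.66% were called lower and 12.1% had an unadjusted p under 0.05 in limma. In this comparison 1 of 6 other canalicular transporters was higher, Abcg2 (0.43 ± 0.08, adjusted p = 0.00289), an exporter of urate and xenobiotics. Of 9 other phospholipid acyl chain remodelling genes 1 was higher, Lclat1 (0.22 ± 0.05, adjusted p = 0.0137), a lysocardiolipin acyltransferase. Of 7 genes of cholesterol esterification and ester hydrolysis 0 passed in limma, 1 with an unadjusted p under 0.05, and Ces1d, a carboxylesterase, had the smallest p (0.22 ± 0.07, adjusted p = 0.0857). Of 13 genes of intracellular cholesterol transport 1 was lower, Stard4, a sterol carrier (−0.75 ± 0.07, adjusted p = 5.02e-07). Stard4 was also lower in HFD-EPA/DHA than in HFD-corn oil livers over both times (−0.50 ± 0.08, adjusted p = 0.0113), the only gene of these lists called between the HFDs over both times.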

How the data were processed

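Each of the 24 arrays (GeneChip for mouse genes, version 2.0 ST) held liver RNA of a single mouse. The authors summarised perfect match probes by iter-PLIER with quantile normalization in Expression Console, and the scale is not named beside the values. The deposited values were read as log2 from their range and used as they stood. Precision is limited by the number of arrays. Of the probe sets 23521 carried 1 gene symbol, 1820 several and 16004 none in the platform annotation.

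Groups came from the labels. As in the study, the 8-week HFD-corn oil array numbered replicate 3 stayed out of the fit. limma 3.58.1 (lmFit, contrasts.fit, eBayes) under R 4.3.3 was fitted to 23 arrays and 14 comparisons with 1 mean per diet and time. Tests were two-sided, with Benjamini-Hochberg adjustment across the 41345 probe sets of each comparison. For each gene the brightest probe set with 1 symbol was used. The members and the gene lists were chosen with earlier results of these data known. Every member is named, with up to 4 called genes with the smallest p of each list, or the 1 with the smallest p where none was called, and the 3 genes most alike to each member, of which 1 or more are given. Lists for endothelium, stellate cells, cholangiocytes, lymphocytes and neutrophils, and adipocytes had no gene called between diets, and their genes with the smallest p were Clec4g, Col1a1, Sox9, S100a8 and Adipoq (unadjusted p of 0.00669 to 0.124 in limma).

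Replicate numbers do not pair mice in any source used here, and the replicate block was an alternative alone. Other alternatives were all 24 arrays, with and without array weights, 16 added to the linear signal, filters on dim and on unnamed probe sets, a further quantile normalization, median centring, separate fits, trend and robust settings, and each array left out in turn. Averaging several probe sets per gene could change nothing, since each member has 1. Scripts were tested on simulated data. data.table (1.17.8), matplotlib 3.10.9 and Python 3.11.15 were also used.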

Additional observations from a re-analysis of the deposited data

Results flagged for a closer look

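The array that the study left out, HFD-corn oil replicate 3 at 8 weeks, was left out of every comparison in the text above, and 4 members had a higher log2 signal on it than in every control liver. Abcg8 had 11.26, Abca1 12.45, Abcg1 9.42 and Lpcat3 12.43, against highest control values of 10.77, 11.90, 8.74 and 12.26 for the same genes. Abcg5 (11.91) and Scarb1 (11.75) did not exceed their highest control values of 11.91 and 11.76. On this array Abcg8 was thus above and Abcg5 level with the highest control liver. How many of all probe sets exceeded every control liver on this array was not counted. The count of 4 members therefore has no background to be read against.

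In 2 of 30 groups of 4 livers a single liver stood apart from the other three by Dixon's criterion, which chance meets in about 1 in 20 groups. Abcg5 in control livers at 12 weeks had a highest value of 11.89, against 11.36 to 11.45 in the others. Abcg1 in HFD-EPA/DHA livers at 8 weeks had a highest value of 8.79, against 8.58 to 8.60 in the others.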

How the results depend on the processing

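The number of members called changed under the alternatives in 2 of the 14 comparisons. HFD-EPA/DHA vs. control at 8 weeks, with 1 member called (Abca1), had 0 called with all 24 arrays, with a separate fit per week and with only the groups compared, 2 with probe sets above the median or arrays centred on their medians, 3 with array weights or with probe sets of 1 symbol, and 0 to 2 when each array was left out in turn. With the replicate block 0 were called there (Abca1 adjusted p = 0.0544), and the block changed no other count of called members. HFD-corn oil vs. control at 8 weeks, with 2 called, had 4 with all 24 arrays, where Abca1 (0.41, adjusted p = 0.0336) and Abcg1 (0.58, adjusted p = 0.0142) also passed, 3 with array weights, an offset of 16 or arrays centred on their medians, where Abcg1 passed (adjusted p = 0.0219, 0.0482 and 0.0413), 3 with trend and robust settings, where Abca1 passed (adjusted p = 0.0492), and 1 to 3 when each array was left out. The other 12 counts were the same in every alternative run. The same replicate number in different groups gave correlations of −0.31 to 0.26 over 55 pairs (median 0.04) after group means were removed, and 7 of 23 arrays were most alike to one of their own number.

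Differences near 0 changed sign. With all 24 arrays, HFD-EPA/DHA minus HFD-corn oil gave −0.063 for Abca1 at 8 weeks and −0.021 over both times. With each array left out, Abca1 ranged from −0.0091 to 0.040 in HFD-EPA/DHA minus HFD-corn oil at 12 weeks, Scarb1 from −0.0071 to 0.11 in HFD-EPA/DHA vs. control at 8 weeks, and Lpcat3 from −0.058 to 0.056 in HFD-EPA/DHA vs. control at 12 weeks. The cause was not tested. Calls at 8 weeks rest on 4 livers against 3 or 4, and adjusted p-values near 0.05 moved across it with 1 array.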
